A study of Homo sapiens with 12 samples.

Results

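H3K27ac, the acetylation of lysine 27 on histone H3, was compared between 2 human pancreatic cancer cell lines, BxPC3 and Panc327. Peaks from the 2 H3K27ac ChIP-seq libraries of each line, on chromosomes 1 to 22 and X, were joined wherever they shared at least 1 bp, which gave 49900 regions. Each region was then sorted by which of the 4 peak lists had a peak in it. Regions with a peak in both BxPC3 lists and in no Panc327 list are called BxPC3-only, and they numbered 10972 (22.0% of all regions). Regions with a peak in both Panc327 lists and in no BxPC3 list are called Panc327-only, and they numbered 4281 (8.58%). Regions with a peak in all 4 lists numbered 15377 (30.8%). The 3 classes together held 30630 of the 49900 regions, and the 6 ChIP libraries of the whole series gave 58994.

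H3K27ac is laid down by the acetyltransferases EP300 and CREBBP and is found on nucleosomes beside active promoters and active enhancers. Promoters of widely used genes tend to carry it in most cell types, while enhancers carry it in a pattern that differs between cell types and between tumours of 1 organ. In pancreatic ductal adenocarcinoma, enhancer H3K27ac differs between tumours of the classical and the basal-like expression subtype.

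All cells were untreated and grown under standard conditions. BxPC3 is an established epithelial cell line of a pancreatic adenocarcinoma, and the labels list both lines as human PDA cells and say no more of Panc327. Each line gave 2 ChIP libraries and 2 input libraries, that is 8 of the 12 samples of the series, and the inputs enter here only through the background used in peak calling. The labels do not say whether the 2 libraries of a line came from separate cultures, so any spread given here may be technical. With 2 libraries against 2, the smallest p of an exact permutation test is 0.333, so no test between the lines was made and every difference is given with the values of each library. Positions are on the hg19 build. No gene annotation of that build was used here, so regions are named by position and not by gene, and the lines were not checked against marker genes.

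The 4 lists differed in length and in background. BxPC3 had 34113 peaks in replicate 1 and 38335 in replicate 2, and Panc327 had 27776 and 29139. No peak was listed with a −log10 p under 10. Read depth is not given in the lists, but the fold and p of the peaks return the genome-wide background that the peak caller used, in reads at a position. That background was 1.96 and 2.37 reads in the BxPC3 lists, 1.46 in Panc327 replicate 1 and 2.85 in Panc327 replicate 2. The Panc327 libraries thus differed most in background, and the median fold of their peaks differed in the other direction, 23.2 in replicate 1 and 11.1 in replicate 2. The median folds of the BxPC3 lists were 14.4 and 14.0.

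BxPC3 carried more H3K27ac regions of its own than Panc327, at 2.56 BxPC3-only regions for each Panc327-only region. Of the 30284 regions marked in BxPC3, meaning called in both of its lists, 36.2% had no Panc327 peak, 13.0% (3935) had a peak in a single Panc327 list and 50.8% were called in all 4. Of the 20169 regions marked in Panc327, 21.2% had no BxPC3 peak, 2.53% (511) had a peak in a single BxPC3 list and 76.2% were called in all 4. The size of the imbalance moved with the length of the lists. When each list was cut to its 27776 strongest peaks, there were 6847 BxPC3-only and 4754 Panc327-only regions, a ratio of 1.44. The Panc327-only count also rested on the agreement of its libraries, with 8610 such regions when replicate 1 was left out and 9191 when replicate 2 was left out, at ratios of 1.38 and 1.57. A line with 1 list left needs only that list to mark a region, so these counts rise in part by construction.

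**Figure D1:**
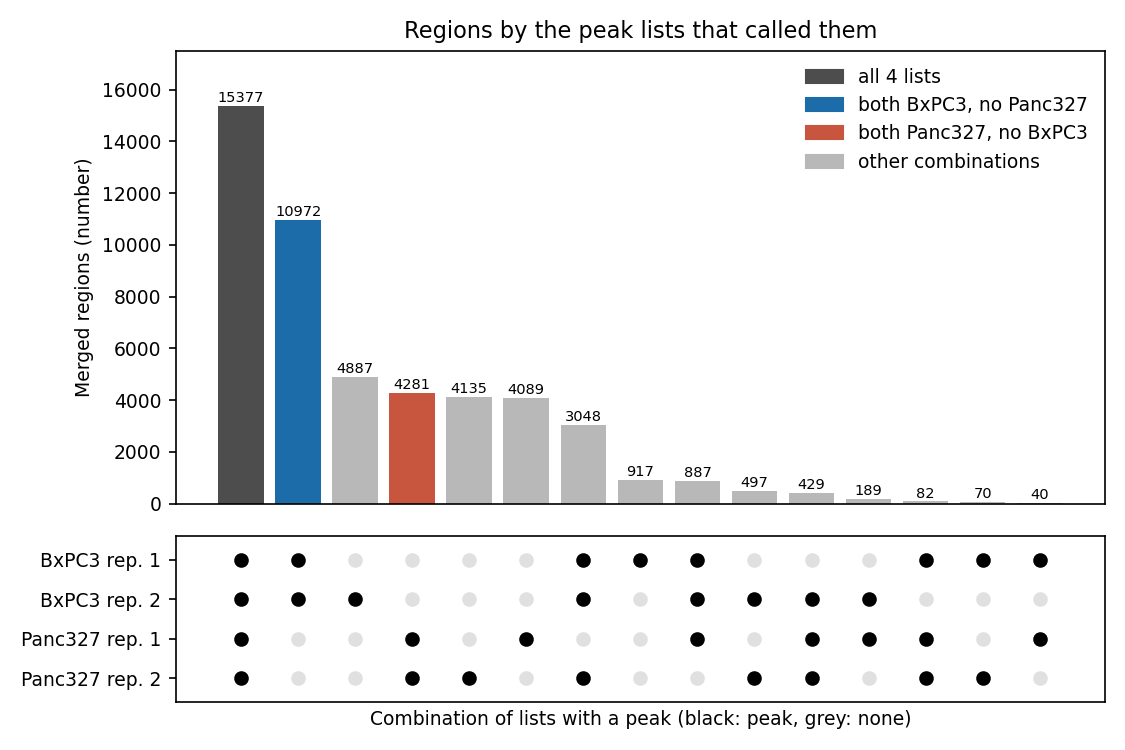
Number of merged regions (bars) for each combination of the 4 peak lists, with the lists that called them shown as black dots under each bar. The largest bars are the 15377 regions in all 4 lists and the 10972 regions in both BxPC3 lists alone, while the 4281 regions in both Panc327 lists alone are about as many as those in Panc327 replicate 2 alone (4135) or replicate 1 alone (4089).

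The libraries of a line did not agree equally well, as the plot of regions by combination shows. In BxPC3, 917 regions were called in replicate 1 alone of the 4 lists and 4887 in replicate 2 alone, which is the longer list. These regions were narrow, with median widths of 317 and 327 bp. In Panc327, 4089 regions were called in replicate 1 alone and 4135 in replicate 2 alone, with median widths of 488 and 558 bp. By count, Panc327 replicate 2 shared more regions with BxPC3 than replicate 1 did. Its peaks also covered more bases, 46.3 against 34.1 Mb, which makes overlap more likely by construction. Of regions in both BxPC3 lists, 3048 also had a peak in Panc327 replicate 2 but not 1, and 887 in replicate 1 but not 2.

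The line-only regions were mostly weak peaks of their line. The strength of a region in a list is given here as its percentile by the highest −log10 q of its peaks among all regions of that list. BxPC3-only regions had median percentiles of 28.8 in replicate 1 and 37.8 in replicate 2. Panc327-only regions had median percentiles of 36.3 and 32.7. Regions in all 4 lists lay at 73.9 and 77.5 in BxPC3 and at 68.5 and 70.6 in Panc327. Few line-only regions reached a −log10 q in the top 10% of a list. Only 23 of the 10972 BxPC3-only regions did so in both lists of their line, as did 18 of the 4281 Panc327-only regions. A region in all 4 lists needs a called peak in each, which favours strong peaks by construction.

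Whether a region was called in the other line varied with its strength. Regions marked in BxPC3 were ranked by their mean rank over both lists and cut into 10 deciles. In decile 1, the weakest, of 3028 regions, 73.8% had no Panc327 peak. The share was 44.3% in decile 5, 16.1% in decile 7 and 0.825% (25 of 3029) in decile 10, the strongest. Among regions marked in Panc327 the share with no BxPC3 peak went from 62.5% in decile 1 of 2016 regions to 16.1% in decile 5 and 1.29% (26 of 2017) in decile 10. In each decile, regions of BxPC3 were called in a single list of the other line more often than regions of Panc327. In decile 5, 19.97% of BxPC3 regions had a peak in 1 Panc327 list, and 2.18% of Panc327 regions had a peak in 1 BxPC3 list. Leaving out Panc327 replicate 1 raised the share in decile 10 of Panc327 to 2.12%, and leaving out Panc327 replicate 2 raised that in decile 10 of BxPC3 to 1.27%.

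**Figure D2:**
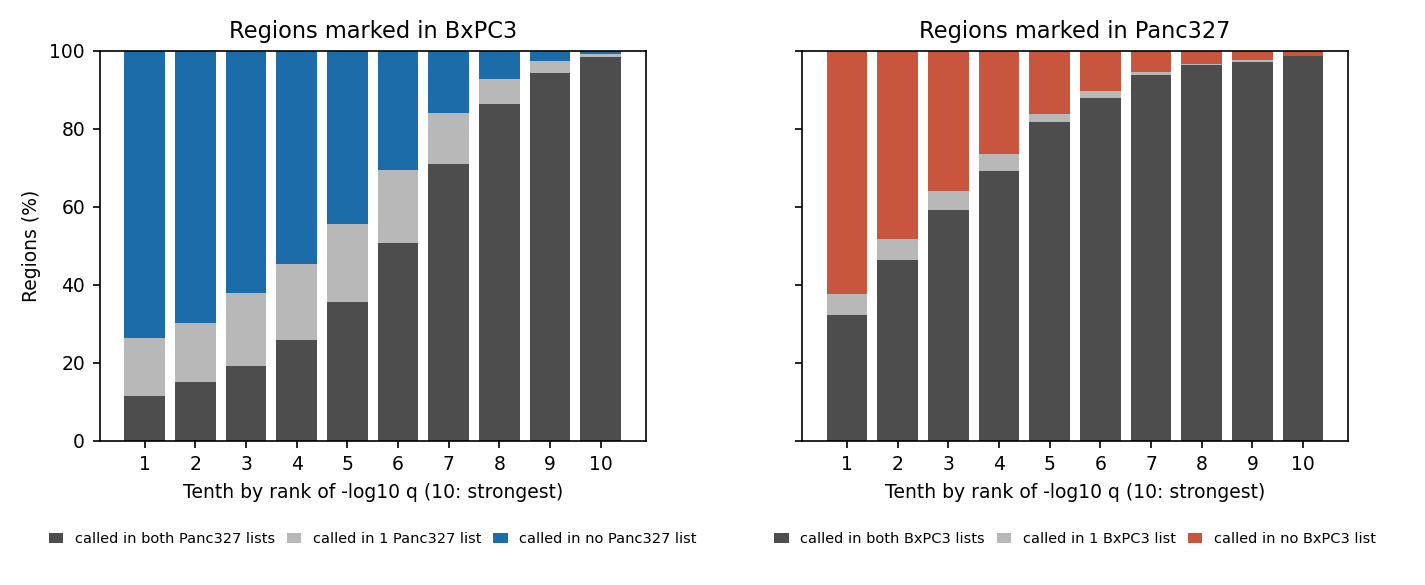
Regions marked in BxPC3 (left) and in Panc327 (right), cut into deciles by the rank of their −log10 q in their own line (x axis, 10 is strongest). Stacked bars give the percentage of each decile that was called in both, 1 or no list of the other line, and the coloured part shrinks from 73.8 to 0.825% in BxPC3 and from 62.5 to 1.29% in Panc327.

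Taken 1 list at a time, weak did not mean marginal for most line-only regions. A −log10 q of at least 20 was reached by 66.6% of the BxPC3-only regions in replicate 1 and by 77.6% in replicate 2. It was reached by 88.5% of the Panc327-only regions in replicate 1 and by 65.8% in replicate 2. How many reached it in both lists of their line is not given here. Of the regions in all 4 lists, 94.5 to 97.4% reached it in a given list. When only such peaks were used in all 4 lists, 7805 BxPC3-only and 3089 Panc327-only regions were found, at a ratio of 2.53. That cut also drops weaker peaks of the other line, so these counts can include regions that were not line-only before. Within the BxPC3-only class the strength order was much the same in both libraries, with a Spearman correlation of 0.83 over 10972 regions. Within the Panc327-only class it was 0.50 over 4281 regions. These correlations are across regions of 2 libraries and describe them only. The covered bases made up a smaller part of each line than the counts. BxPC3-only regions held 10.3 and 11.6 Mb of the peaks of replicates 1 and 2, 21.1 and 21.2% of the bases in those lists. Panc327-only regions held 4.45 and 4.89 Mb, 13.1 and 10.6% of theirs.

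The broadest BxPC3-only regions were 7.13 to 15.5 kb wide, each called as a single peak in replicate 2 and as 1 or 2 peaks in replicate 1. The region with the most covered bases lay on chromosome 16 from 85024791 to 85040265. BxPC3 replicate 1 covered 15336 bp of it and replicate 2 covered 15475 bp, at folds over background of 57.3 and 58.9, the authors' own value for each peak as are all folds here. It stood at percentiles 94.4 and 93.5 of those lists. The nearest Panc327 peak was 3.93 kb away, and the nearest region in all 4 lists was 1.71 kb away. The next was on chromosome 4 from 30718044 to 30729428, a region of 11385 bp with folds of 45.9 and 49.6. No Panc327 peak lay within 3854 kb of it. On chromosome 1, a region from 17532709 to 17543329 with folds of 52.1 and 47.8 began or ended only 0.828 kb from a Panc327 peak. The nearest region in all 4 lists was also 0.828 kb away. The region on chromosome 13 from 74065234 to 74074877 had folds of 50.3 and 64.3. It was among the broadest and also among the strongest, at percentiles 98.8 and 98.9. The region on chromosome 4 from 11424884 to 11434042, with folds of 42.0 and 44.0, was 965 kb from the nearest Panc327 peak. The 10 broadest BxPC3-only regions thus lay anywhere from 0.828 to 3854 kb from H3K27ac of the other line.

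The strongest BxPC3-only region lay on chromosome 20 from 23026637 to 23032975. Its folds were 63.2 and 107.9 in replicates 1 and 2, with percentiles of 99.5 and 99.8, and the nearest Panc327 peak was 297 kb away. A region on chromosome 15 from 101281049 to 101287005 had folds of 64.5 and 98.3 and lay 12.1 kb from a Panc327 peak. On chromosome 16, the region from 29756198 to 29758824 had folds of 66.2 and 98.2. A narrow region of 983 bp on chromosome X, from 115004426 to 115005408, had folds of 41.5 and 74.1 and percentiles of 98.1 and 99.0. All 5 strongest regions, the chromosome 13 region above included, were thus at percentile 98.1 or above in both BxPC3 lists, the values that chose them.

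Some BxPC3-only regions stood next to each other in long stretches without any Panc327 peak. A stretch is counted here as neighbouring regions marked in a line with no peak of either library of the other line between them. BxPC3 had 86 stretches of at least 10 regions, which held 1229 of its 10972 line-only regions. Panc327 had 5, which held 65 of its 4281. By contrast, 3194 BxPC3-only and 2374 Panc327-only regions had no such neighbour. BxPC3-only regions are more numerous and the Panc327 lists are shorter, and both lengthen BxPC3 stretches by construction. Stretches were not counted with lists of equal length. The longest ran over 1.34 Mb of chromosome 20 from 21897058 to 23239141 and held 36 regions, the strongest BxPC3-only region among them. The second ran over 2.27 Mb of chromosome 4 from 10632747 to 12905426 with 32 regions, and the third over 1.499 Mb of chromosome 8 from 122157331 to 123655891 with 30. The longest run of Panc327 was on chromosome 10 from 73453705 to 73770373 with 18 regions in 0.317 Mb. It was followed by chromosome 21 from 43032963 to 43431572 with 16, and chromosome 1 from 10764293 to 10949480 with 11. The number of long stretches depended on single libraries and on the threshold. BxPC3 had 171 without its replicate 1, 160 without Panc327 replicate 2 and 47 with peaks of −log10 q 20 or more, while Panc327 had 17 without its replicate 1, 20 without its replicate 2 and 2 at that threshold.

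Line-only regions were also counted in windows of 1 Mb. The window of chromosome 14 from 37 to 38 Mb held 31 BxPC3-only regions among 34 marked in BxPC3. It was followed by chromosome 8 from 29 to 30 Mb with 28 of 33. The windows of chromosome 7 from 76 to 77 Mb and chromosome 12 from 50 to 51 Mb held 27 each, of 37 and 52 marked. In the chromosome 12 window Panc327 was not silent, since 39 regions had a peak in at least 1 of its lists, while the chromosome 8 window had 5 such regions. For Panc327 the fullest window was chromosome 19 from 39 to 40 Mb, with 28 Panc327-only regions among 73 marked in Panc327. Chromosome 17 from 76 to 77 Mb held 25 of 54, and chromosome 21 from 44 to 45 Mb held 25 of 47. These Panc327 windows were also rich in BxPC3 peaks, with 58, 39 and 35 regions called in at least 1 BxPC3 list.

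Panc327-only regions with the most covered bases agreed less well between the libraries. The first lay on chromosome 11 from 31830486 to 31840125, where replicate 1 covered 8528 bp as 2 peaks and replicate 2 covered 9489 bp as a single peak. Its folds were 75.6 and 19.98, at percentiles 75.2 and 69.9, and the nearest BxPC3 peak was 269.5 kb away. On chromosome 6, the region from 44626794 to 44637487 was covered over 4266 bp by 3 peaks in replicate 1 and over all 10694 bp by a single peak in replicate 2. On chromosome 16 the order was the other way, with 9286 bp in replicate 1 and 4431 bp in replicate 2 between 1480431 and 1489716. The region on chromosome 1 from 1291232 to 1298150 was covered over 6919 and 6498 bp, stood at percentiles 93.3 and 93.3, and lay 5.86 kb from a BxPC3 peak. Folds of Panc327 replicate 1 exceeded those of replicate 2 in 9 of these 10 regions, as they did over the whole lists.

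The strongest Panc327-only region was on chromosome 19 from 38209366 to 38211162. Its folds were 167.2 and 35.5 in replicates 1 and 2, at percentiles 99.9 and 99.9. It lay in a 2 Mb window where the local background of the Panc327 lists was 4.37 and 4.70 times their genome-wide level, against 1.53 and 1.27 in the BxPC3 lists. The second was on chromosome 7 from 27169404 to 27171361, with folds of 173.7 and 26.6, and a BxPC3 peak lay 1.69 kb away. The third was on chromosome 19 from 58513299 to 58514785, with folds of 148.6 and 27.7. A region on chromosome 20 from 21490207 to 21496593 was both broad and strong, at percentiles 96.6 and 98.0 with no BxPC3 peak within 204.8 kb. The last of the 5, on chromosome 17 from 47072431 to 47076927, had folds of 151.7 and 31.9. Of the 18 Panc327-only regions in the top 10% of both lists, 7 were on chromosome 19, as were 2 of the 23 such BxPC3-only regions. Chromosome 19 held 9.13% of all Panc327-only and 1.90% of all BxPC3-only regions. Of the regions in all 4 lists, 7.48% lay there. The share for all regions in the top 10% of both lists of a line is not given here, so these counts over few regions are a description.

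The classes differed in how far they lay from other H3K27ac. The median BxPC3-only region was 25.8 kb from the nearest Panc327 peak, and 26.5% of them were over 100 kb away. The median Panc327-only region was 12.7 kb from the nearest BxPC3 peak, and 8.27% were over 100 kb away. To the nearest region in all 4 lists the medians were 56.0 and 18.2 kb. In contrast, the median distance to the next region of the same class was 17.2 kb for BxPC3-only and 43.4 kb for Panc327-only regions. BxPC3-only regions are more numerous and the BxPC3 lists are longer, and both bear on these distances by construction.

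The balance between the lines differed from chromosome to chromosome. Over the genome there were 2.56 BxPC3-only regions for each Panc327-only region. On chromosome X there were 299 against 45, a ratio of 6.64, on chromosome 8 there were 636 against 101 (6.30), on chromosome 13 343 against 58 (5.91) and on chromosome 4 582 against 107 (5.44). On 3 chromosomes the Panc327-only regions were in the majority. Chromosome 19 held 391 of them against 209 BxPC3-only regions (0.53), chromosome 17 held 401 against 267 (0.67) and chromosome 22 held 185 against 151 (0.82). Chromosome 16 had 286 against 211 (1.36). Seen within each line, 48.7% of the regions marked in BxPC3 on chromosome 4 had no Panc327 peak, but 14.4% on chromosome 19. In Panc327 the share without a BxPC3 peak was 10.5% on chromosome X and 24.7% on chromosome 19, and it was highest on chromosome 21, at 36.7%.

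These contrasts held relative to the genome-wide ratio of each setting, although the ratios themselves moved. With each list left out in turn, with lists of equal length and without windows of raised background, chromosomes 4, 8, 13 and X stayed above the genome-wide ratio in 6 of 6 settings, and chromosomes 16, 17, 19, 21 and 22 stayed below it in 6 of 6. The chromosome 19 ratio lay between 0.20 and 0.36 times the genome-wide one, and the chromosome X ratio between 1.74 and 2.63 times. As an absolute ratio, only chromosome 19 was below 1 with every list left out in turn (0.32 without Panc327 replicate 2 to 0.79 without BxPC3 replicate 1). Without BxPC3 replicate 1, chromosomes 17 and 22 came to 1.03 and 1.19. The Panc327 libraries differed from each other here. On chromosome 19 lay 9.27% of the regions found in Panc327 replicate 1 alone, 2.999% of those in replicate 2 alone, 9.13% of the Panc327-only and 1.90% of the BxPC3-only regions. It held 7.98 and 6.38% of the peaks of the Panc327 lists and 4.75 and 4.54% of those of the BxPC3 lists. Without Panc327 replicate 1 the chromosome 19 ratio was 0.50.

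**Figure D3:**
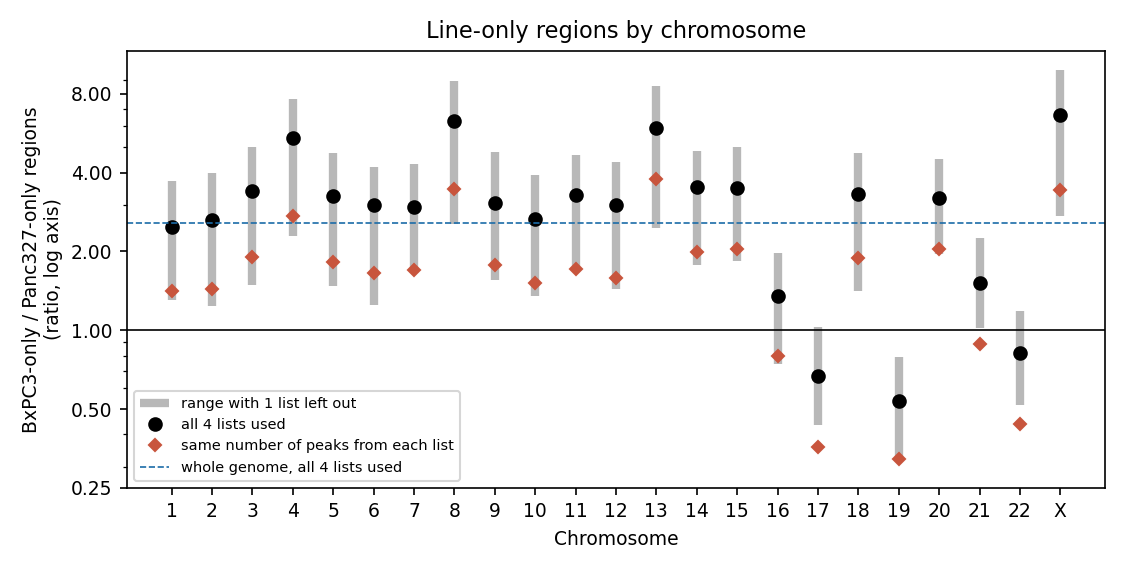
Ratio of BxPC3-only to Panc327-only regions on each chromosome (log axis). Black points use all 4 lists, grey bars span the ratios with each list left out in turn, red diamonds use lists of equal length, and the dashed line is the genome-wide ratio of 2.56. Chromosomes 4, 8, 13 and X are highest and chromosomes 17, 19 and 22 lowest.

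Local background, which the peak caller takes in part from the input, was raised in both Panc327 lists in several blocks. In 22 windows of 2 Mb the median background of both Panc327 lists was at least 2 times the genome-wide level, and in 0 windows was this so for both BxPC3 lists. BxPC3 replicate 1 alone did reach it, with 2.04 times around the strongest BxPC3-only region against 1.69 in replicate 2. Of single peaks, 17.8 and 8.79% in BxPC3 replicates 1 and 2 had at least 2 times that level. In Panc327 it was 13.9 and 17.8%. The highest was chromosome 19 from 38 to 40 Mb, with the values given above and 46 Panc327-only against 3 BxPC3-only regions. On chromosome 3, the windows from 12 to 14 and from 14 to 16 Mb had 3.69 and 4.06 times, and 3.88 and 4.27 times, in Panc327 replicates 1 and 2. They held 22 and 8 Panc327-only and 15 and 5 BxPC3-only regions. The raised windows held 4.63% of the Panc327-only, 1.85% of the BxPC3-only and 2.78% of all regions. Without them there were 10769 BxPC3-only and 4083 Panc327-only regions at a ratio of 2.64, and the chromosome 19 ratio was 0.60. The background cannot fall below the genome-wide level, so a stretch of lost DNA in a line does not show in it, and loss of DNA and absence of H3K27ac cannot be told apart in the stretches without peaks.

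In a small part of the regions called in all 4 lists, the lines differed in how many bases their called peaks covered. Both BxPC3 libraries covered at least 2 times as many bases as both Panc327 libraries in 512 of the 15377 regions, and the reverse held in 450. In the region on chromosome 22 from 37582509 to 37588305, BxPC3 covered 5797 and 5706 bp and Panc327 covered 521 and 511 bp. On chromosome 22 from 23565588 to 23570149 the values were 4486 and 4363 bp against 340 and 511 bp. On chromosome 5 from 42983884 to 42993973 they were 9626 and 10090 bp against 1273 and 818 bp. In the other direction, Panc327 covered 9535 and 8377 bp on chromosome 20 from 62680105 to 62689639, where BxPC3 covered 609 and 753 bp. On chromosome 19 from 16996051 to 17001304, Panc327 covered 4941 and 4930 bp and BxPC3 351 and 506 bp, and on chromosome 19 from 3986555 to 3990705 the values were 2876 and 3446 bp against 295 and 305 bp. These 6 regions were chosen for that ratio, so the gap between the lines in them is a description.

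Over all shared regions, the Panc327 libraries differed from each other more often than the BxPC3 libraries did. BxPC3 replicate 2 covered at least 2 times the bases of BxPC3 replicate 1 in 205 of the 15377 regions, and the reverse held in 18. Panc327 replicate 2 covered at least 2 times the bases of Panc327 replicate 1 in 2332, and the reverse held in 337. Between the lines the numbers ran from 786 to 3118 of the 15377, and they were highest for a BxPC3 library over Panc327 replicate 1. The counts over both libraries moved accordingly, to 1470 and 1119 regions wider in BxPC3 and in Panc327 without Panc327 replicate 1, and to 2778 and 695 without Panc327 replicate 2. Regions wider in Panc327 numbered 737 without BxPC3 replicate 1, 757 without BxPC3 replicate 2 and 285 with lists of equal length.

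**Figure D4:**
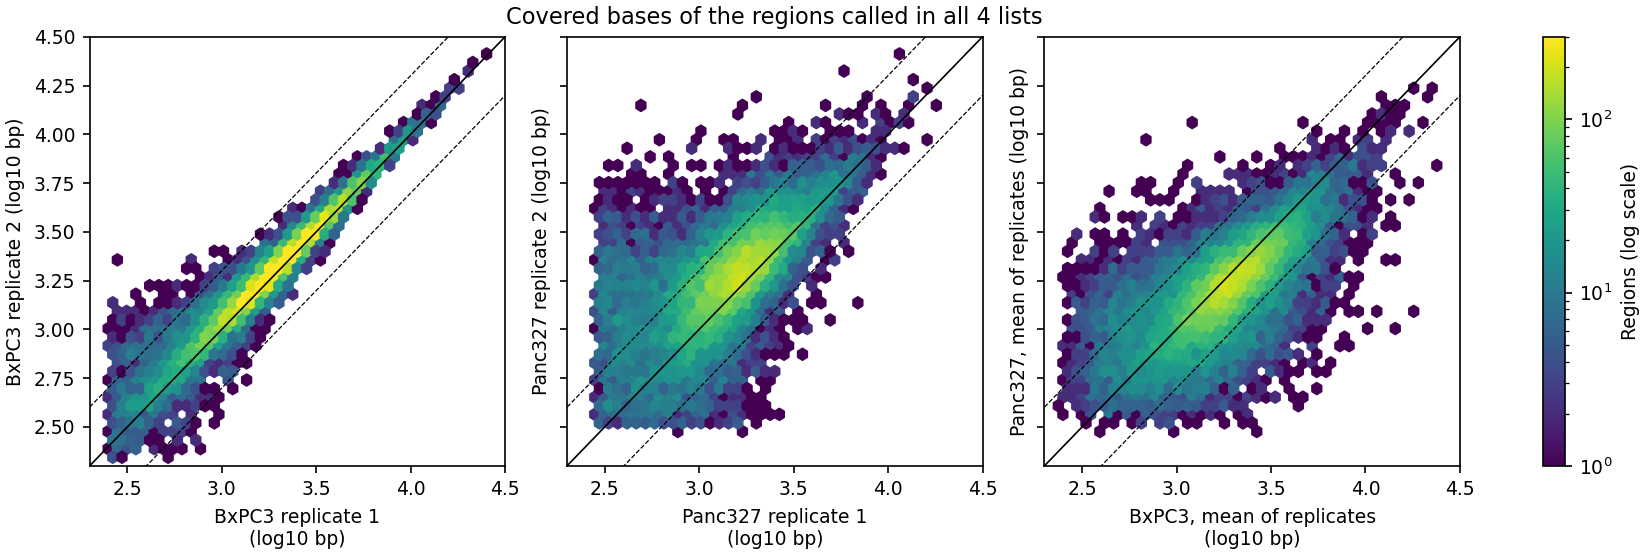
Bases covered by peaks in each of the 15377 regions called in all 4 lists (log10 bp on both axes), for the BxPC3 replicates (left), the Panc327 replicates (middle) and the mean of the logs for each line (right); colour is the number of regions on a log scale. The solid line marks equal cover and the dashed lines a factor of 2, within which nearly all BxPC3 regions lie, while 2332 regions of Panc327 were at least 2 times wider in replicate 2.

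The widest shared region was on chromosome 10 from 95216902 to 95243196. BxPC3 covered 20953 and 22292 bp of it, Panc327 replicate 1 covered 11710 bp in 11 peaks and Panc327 replicate 2 covered 25382 bp in 3. On chromosome 22, the region from 46459855 to 46485120 was covered over 25185 and 24919 bp in BxPC3 but over 7589 and 6164 bp in Panc327, although its peak was among the strongest of all 4 lists (percentiles 97.7, 93.4, 99.7 and 99.1). On chromosome 12 from 28116880 to 28138368, Panc327 replicate 2 covered 21489 bp and the other 3 libraries between 5932 and 12238 bp. The Panc327 background there was 2.16 and 2.62 times the genome-wide level.

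The order of strength among the shared regions was nearly the same in both BxPC3 libraries and differed more in every other pair. Over the 15377 regions the Spearman correlation of the −log10 q was 0.97 between the BxPC3 libraries, 0.77 between the Panc327 libraries and 0.64 to 0.67 between libraries of different lines. Of the regions in the top 10% of shared regions in both BxPC3 lists, 42 of 1211 were in the lower 50% in both Panc327 lists. In the other direction it was 50 of 909. Taking 1 list against 1 list, 113 to 176 of the 1537 or 1538 regions in the top 10% of a list were in the lower 50% of a list of the other line. Between the BxPC3 lists 0 regions moved that far in either direction. Between the Panc327 lists 93 regions were in the top 10% of replicate 2 and the lower 50% of replicate 1, and a single region moved the other way.

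Summits, the points of highest pile-up, gave a further comparison that the sorting into classes did not use. The strongest summits of the BxPC3 libraries lay a median of 37 bp apart in the shared regions, and 80.3% of them were within 100 bp. Between a BxPC3 and a Panc327 library the median distance was 79 to 91 bp, with 52.7 to 57.0% within 100 bp. The Panc327 libraries lay a median of 104 bp apart, with 48.8% within 100 bp, further than any pair of libraries from different lines. In the 12083 regions with a single peak in each list the medians were 35 bp within BxPC3, 73 to 81 bp between the lines and 95 bp within Panc327. The median distance between the lines was thus within that between the Panc327 libraries. Summits at least 1 kb apart were found in 1.32% of the regions for the BxPC3 pair, in 4.45% for the Panc327 pair and in 4.40 to 5.28% between the lines.

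**Figure D5:**
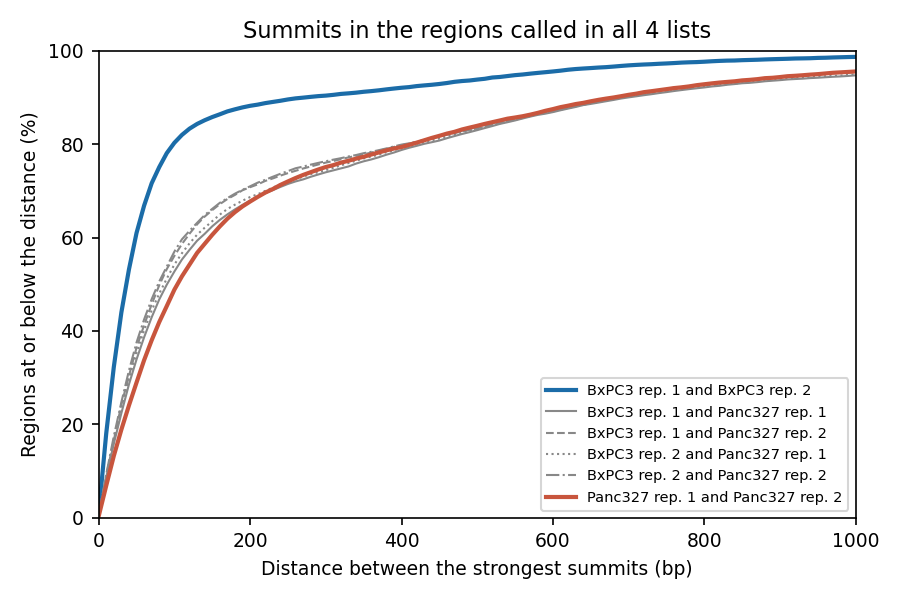
Cumulative percentage of the 15377 regions called in all 4 lists (y axis) whose strongest summits lay within a given distance in bp (x axis), for each of the 6 pairs of libraries. The BxPC3 pair (blue) rises fastest, with 80.3% within 100 bp, and at that distance the Panc327 pair (red) is lowest, at 48.8%.

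SUIT2, a further pancreatic cancer line of the series, was not used to sort the regions and gives a separate readout of them. Of the regions in all 4 lists, 84.1% had a peak in both SUIT2 lists and 14.6% in none. Of the BxPC3-only regions 27.8% (3050) had a peak in both SUIT2 lists, and of the Panc327-only regions 17.3% (741). The share over all 49900 regions is not given here. A wide region meets a SUIT2 peak more easily by construction, which also bears on the broadest regions below. Median widths were 2307 bp for regions in all 4 lists, 852.5 bp for BxPC3-only and 1171 bp for Panc327-only regions. In both line-only classes the strongest 20% of regions were called in SUIT2 more often than the weakest 20%. Of the BxPC3-only regions, 22.7% of the weakest and 37.9% of the strongest had a peak in both SUIT2 lists, and of the Panc327-only regions 10.9 and 28.5%. Of the 10 broadest BxPC3-only regions, 7 were called in both SUIT2 lists, among them the regions on chromosomes 16, 1 and 13 and both on chromosome 4. Of the 10 broadest Panc327-only regions, 3 were, among them the first, on chromosome 11. The strongest BxPC3-only region, on chromosome 20, had no SUIT2 peak, and the strongest Panc327-only region, on chromosome 19, had a peak in both SUIT2 lists. The longest BxPC3-only stretch had 7 of its 36 regions called in both SUIT2 lists, and the longest Panc327-only stretch had 10 of its 18.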

How the data were processed

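H3K27ac ChIP-seq of BxPC3 and Panc327 cells was analysed from 1 deposited peak list per library, with no pooling of libraries before peak calling. The submitters' processing notes name hg19 as the build and list MACS2, Bowtie 1.1.1 and bcl2fastq 1.8.4 as tools. How MACS2 was set, and its version, are not given in the sources used here. The deposited fold ratio and the −log10 p and −log10 q of each peak are the authors' values, used to describe, rank and filter peaks within a list. The deposited score column was not used, and the deposited summit offsets gave the summits.

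Regions were merged in Python 3.11.15 with pandas 2.3.3, numpy 2.4.6, matplotlib 3.10.9 and scipy 1.17.1. Merging with bedtools 2.31.1 gave the same 49900. Local background was solved from the fold, taken as pile-up over background with a pseudocount of 1, and the Poisson p, within 0.001 of the −log10 p. This worked for 99.9 to 100% of the peaks of a list. Windows of 2 Mb needed at least 8 peaks in both lists of a line. On simulated data, all 3 classes were recovered over 20000 regions, and the background of 100% of 5000 peaks came out within 1%. Simulated peaks of a region shared a midpoint, and the simulated fold and p were made with the formula that was solved. Both checks thus bear on the calculation and not on the assumed formula.

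The members, tests and lists were chosen with earlier results of these data known. Named regions are, per line, the 10 with the most covered bases and the 5 with the highest lower percentile of the 2 lists (the leading ones are printed), the 3 fullest 1 Mb windows with ties, the 3 longest stretches, and 3 shared regions of each kind. Planned promoter and gene list counts were not run, because no annotation of hg19 was used here. Alternatives were a −log10 q of at least 20, equal list lengths, merging over gaps of 1000 bp, at least 50% cover of a region, 250 bp either side of summits, each list left out in turn, and leaving out windows of raised background. The last was added for the chromosomes after seeing the data.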

Additional observations from a re-analysis of the deposited data

How the results depend on the processing

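No paired analysis was possible because the counts come from no test, and the labels do not say that a replicate number marks a shared culture or day. Under the alternatives, 54 values over the whole genome stayed close to the reported one (counts within 1.5 times, ratios and percentages within its exact 95% binomial interval, which covers counting error only) and 36 moved. Of the ratios of single chromosomes, 47 stayed, 85 moved on the same side of 1 and 6 crossed 1.

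With lists of equal length, BxPC3-only regions came to 6847, the ratio to 1.44, shared regions wider in Panc327 to 285, and the share of decile 1 in no list of the other line to 65.3% for BxPC3 and 68.8% for Panc327. Chromosomes 16 and 21 then had ratios of 0.794 and 0.886. The ratio was 2.31 with peaks up to 1000 bp apart merged and 2.79 with 50% cover, where 9236 regions were in all 4 lists. At a −log10 q of at least 20, 47 stretches of BxPC3 and 2 of Panc327 held at least 10 regions.

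With each list left out in turn, the ratio ranged from 1.38 to 3.74 and Panc327-only regions from 4364 to 9191. Shared regions wider in BxPC3 ranged from 519 to 2778 and those wider in Panc327 from 695 to 1119. The share in no list of the other line ranged from 0.979 to 1.27% in decile 10 and 77.2 to 86.0% in decile 1 of BxPC3, and from 1.29 to 2.12% and 63.2 to 75.4% in Panc327. Stretches of at least 10 regions ranged from 107 to 171 in BxPC3 and 5 to 20 in Panc327, whose longest ranged from 18 to 32. The chromosome ratios ranged from 0.741 to 1.97 on chromosome 16 (0.974 without Panc327 replicate 1), from 0.435 to 1.03 on chromosome 17 and from 0.516 to 1.19 on chromosome 22. The values above 1 on chromosomes 17 and 22 were those without BxPC3 replicate 1. Leaving out a list loosens the rule by construction; otherwise the cause was not tested.

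Read depth is not given in the lists, and a region without a peak is one under the authors' threshold, not one shown to lack H3K27ac.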
